A study of Mus musculus with 18 samples.

Results

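The genes described here are 37 genes of the endoplasmic reticulum (ER) stress response and the integrated stress response. They are a list of gene symbols by known role, drawn up with earlier results of these data known, from the 54347 genes listed for wt1-SAM brown adipocytes. All 37 were found in the table and all 37 passed the filter on low counts, which left 14949 genes for testing. By role they comprise 15 chaperones and folding enzymes, 4 genes for the stress sensors and the factor XBP1, 4 genes of ER-associated degradation, 8 regulators of the ATF4 branch and 6 metabolic targets of that branch. The cells are an immortalised mouse brown preadipocyte line that stably carries the CRISPR activation machinery SAM, and every group shares this background and the same differentiation with rosiglitazone, T3, dexamethasone, insulin, indomethacin and IBMX. On day 4 of differentiation they were reverse transfected with locked nucleic acid gapmers (LNAs), which are short modified antisense oligonucleotides. The first was a non-targeting control (ctrlA), and LNA1 and LNA2 are directed against the long non-coding RNA Gm15551. Cells were left unstimulated or received 1 µM isoproterenol, a β-adrenergic agonist, for 24 h before harvest on day 7. The 6 groups were thus ctrlA, LNA1 and LNA2, each without and with isoproterenol, and each had 3 polyadenylated RNA libraries numbered 2, 3 and 4. The labels do not say that replicates came from separate cultures, so p values measure the spread between these libraries, which may be technical.

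Proteins that enter the ER are folded there by chaperones such as BiP (encoded by Hspa5) and by disulfide isomerases. When unfolded proteins accumulate, the sensors IRE1 (Ern1), ATF6 (Atf6) and PERK (Eif2ak3) are engaged: IRE1 splices the messenger of XBP1, ATF6 is cleaved to an active factor, and PERK phosphorylates the translation factor eIF2α, which favours translation of ATF4. Other kinases reach ATF4 by the same step, which is why this arm is called the integrated stress response, and its targets serve amino acid synthesis, one-carbon metabolism and, through CHOP (Ddit3), cell death. Adipocytes secrete adipokines and make large amounts of membrane and lipid, and the unfolded protein response accompanies both.

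To show which oligonucleotides define the groups, their sequences are given from 5′ to 3′. No letters are in capitals, since no part of them is singled out.
ctrlA: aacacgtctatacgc
LNA1: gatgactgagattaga
LNA2: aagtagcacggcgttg
On the GRCm38 genome the complement of LNA1 lies at chr3:126667502-126667517 and that of LNA2 at chr3:126667608-126667623, both on the minus strand in exon 2 of the 2 exons of the Gm15551 transcript. In the GENCODE M21 transcripts an exact complement of LNA1 was present in 1 gene and an exact complement of LNA2 in 1 gene, in both cases Gm15551, and none was present for ctrlA. None of the 37 members held an exact complement of any of these oligonucleotides.

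Promoters were examined next because both arms act on known DNA elements. Windows from 250 bases before to 50 bases after the start site were taken from RefSeq (build GRCm38.p6) and matched 33 of the 37 members by symbol. Windows for Hyou1, Manf, Atf6 and Eif4ebp1 were missing. Each element was searched on both strands. The ER stress element ERSE (CCAAT, 9 bases of any kind, CCACG), to which ATF6 and NF-Y bind, was present in 8 members (24.2%) and in 0.137% of the 27025 genes with a window. Of these 8 members, 7 were chaperones or folding enzymes (Hspa5, Hsp90b1, Calr, Canx, Pdia6, Dnajc3 and Creld2) and the other was Syvn1 of ER degradation. The C/EBP-ATF element TGATGNAA, bound by ATF4 with a C/EBP partner, was present in Herpud1, Atf3, Trib3, Nupr1, Chac1 and Asns (18.2%), against 4.51% of all genes. A core of the UPR element, TGACGTG, was found in 1 member (Hspa5, 3.03%) and 2.22% of all genes, and the cyclic AMP response element TGACGTCA in 1 member (Ppp1r15a, 3.03%) and 2.03% of all genes. The UPR core and the cyclic AMP element share their first letters, but no member held both. A match is a description of letters and not a measured binding site, and the absence of a match concerns only this window.

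Stretches upstream of the start site that carry these elements in 9 members are shown as examples of the ERSE, the UPR core and the C/EBP-ATF element, with the fixed letters of each element in capitals. The C/EBP-ATF match of Trib3 lies after its start site, in transcribed sequence, and is not shown. The element of Hspa5 in the shorter stretch and those of Nupr1 and Asns lie in exons of longer GENCODE M21 transcripts.
Hspa5, UPR core, chr2:34771855-34771969, plus strand: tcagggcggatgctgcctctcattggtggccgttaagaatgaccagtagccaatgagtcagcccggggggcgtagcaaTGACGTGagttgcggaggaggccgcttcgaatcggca
Hspa5, ERSE, chr2:34772018-34772047, plus strand: gacttcaCCAATcggaggcctCCACGacgg
Hsp90b1, ERSE on either strand, chr10:86705524-86705669, minus strand: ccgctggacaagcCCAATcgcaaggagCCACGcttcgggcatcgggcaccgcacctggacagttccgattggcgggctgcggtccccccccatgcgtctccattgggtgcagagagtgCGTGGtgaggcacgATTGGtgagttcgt
Canx, ERSE, chr11:50325773-50325848, minus strand: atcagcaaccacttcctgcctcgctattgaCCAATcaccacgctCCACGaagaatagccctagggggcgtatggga
Pdia6, ERSE, chr12:17266459-17266534, plus strand: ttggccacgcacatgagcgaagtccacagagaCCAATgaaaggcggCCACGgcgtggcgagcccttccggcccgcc
Herpud1, C/EBP-ATF element, chr8:94386279-94386359, plus strand: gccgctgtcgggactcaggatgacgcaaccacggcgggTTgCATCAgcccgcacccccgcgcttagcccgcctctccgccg
Atf3, C/EBP-ATF element, chr1:191183403-191183483, minus strand: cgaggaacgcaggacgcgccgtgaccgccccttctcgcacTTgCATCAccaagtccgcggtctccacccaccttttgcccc
Nupr1, C/EBP-ATF element, chr7:126625562-126625591, minus strand: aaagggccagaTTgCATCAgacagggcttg
Chac1, C/EBP-ATF element, chr2:119351012-119351092, plus strand: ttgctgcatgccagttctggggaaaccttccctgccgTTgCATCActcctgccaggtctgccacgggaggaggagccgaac
Asns, C/EBP-ATF element, chr6:7693214-7693243, minus strand: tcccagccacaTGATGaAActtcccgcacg

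Library totals ranged from 9167560 to 19723021 counts, and the 37 members took 0.814% to 1.05% of them. The lowest count of any member in any library was 136, so that all were measured well above the floor of 3 counts. Values are given as CPM (counts scaled to the library total) after TMM normalisation, which are not scaled by gene length and are therefore compared between libraries and not between genes. The target RNA was scarce: Gm15551 had 42 counts in the 6 ctrlA libraries together, 24 with LNA1 and 27 with LNA2. Per library these were 2 to 14, 1 to 12 and 1 to 13 counts, not scaled to depth, and the ranges overlapped. Libraries of replicate 2 stood apart, with 2.88% to 14.3% of counts on a ribosomal RNA gene (CT010467.1) and 7.86% to 9.79% on mitochondrial genes, against 0.285% to 1.04% and 2.56% to 4.97% in replicates 3 and 4. Replicate 3 of stimulated LNA2 cells also stood apart and held the lowest value of the 18 libraries for 10 members and the highest for 6, against 20.4% and 17.7% of all genes. The unstimulated ctrlA libraries are part of the reference in the comparisons of LNA1 and LNA2 with ctrlA and in that of isoproterenol. Of these, replicate 2 held the highest value for 10 members (7.57% of all genes) and replicate 4 for 7 (4.31%). Adipocyte markers ranged from Fabp4 at 7081 to 20719 CPM down to Cidea at 3.4 to 25.4 CPM and Ucp1 at 0.621 to 16.5 CPM. The proliferation markers Mki67 (179 to 321 CPM) and Top2a (227 to 551 CPM) were also expressed. Among preadipocyte and fibroblast markers Col1a1 (65.4 to 246 CPM) and Col3a1 (110 to 286 CPM) were expressed, while Thy1, Dcn and Cd34 reached at most 0.177, 1.06 and 1.22 CPM. In contrast, 3 of 5 macrophage markers (Ptprc, Adgre1 and Lyz2) and 3 of 4 endothelial markers (Kdr, Tek and Cdh5) had at most 7 counts in a library. The others were higher, with 1 to 33 counts for Csf1r, 123 to 552 for Cd68 and 20 to 63 for Pecam1.

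Replicate number took a median of 57% of a member's sum of squares on the log2 scale, against 49.4% for all genes, while LNA took a median of 12% and stimulation 7.85% (8.26% and 4.32% for all genes). In 7 members all 6 replicate 2 libraries were lower than the other 12 (17.1% of all genes were), and in 6 members all 6 were higher (17.4% of all genes). These 13 members are 35.1% of the list, close to the 34.5% of all genes. The ubiquitin ligase Syvn1 ranged from 38 to 44 CPM in replicate 2 and from 87.1 to 119 CPM in the other libraries, and the sensor Ern1 from 19 to 28.8 CPM and from 44 to 58.5 CPM. Hyou1, Dnajb11, Eif2ak3, Atf5 and Shmt2 were likewise lower, and Hsp90b1, Pdia6, Dnajb9, Dnajc3, Manf and Atf4 higher, without overlap. Atf6 and Xbp1 hardly followed the number, which took 1.13% and 1.93% of their sums of squares.

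Libraries with the same number deviated from their group means together over all genes. Therefore each comparison is given from a fit without the number, which is the main test, and from a fit with the replicate number as a further term, called the replicate block. In the heat map of the members by library the split by number is the most visible feature.

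**Figure D1:**
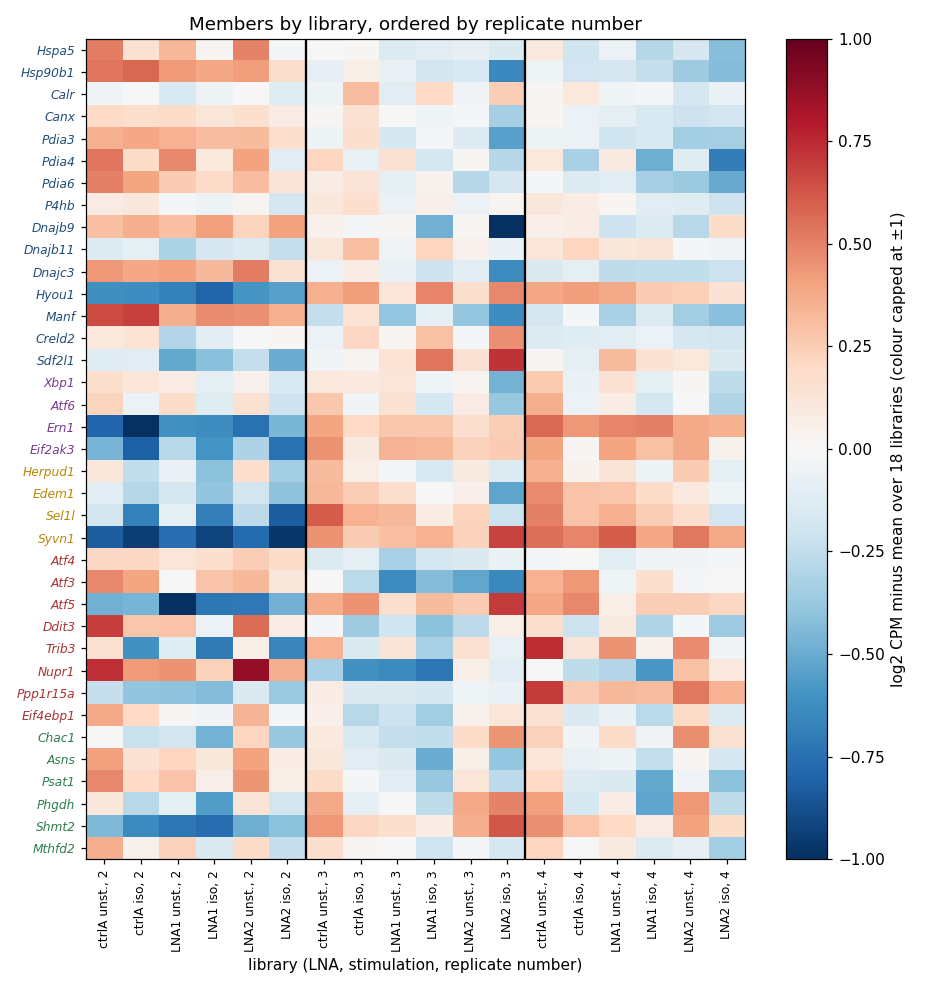
Deviation of each member's log2 CPM from its mean over the 18 libraries (colour, capped at ±1), with libraries in columns ordered by replicate number (2, 3, 4, separated by lines) and members in rows, names coloured by role. Syvn1, Ern1, Hyou1, Atf5 and Shmt2 are low and Hsp90b1, Manf and Nupr1 mostly high across the 6 libraries of replicate 2, and within each number the stimulated columns of Atf6 and Trib3 are lower than the unstimulated ones of the same LNA.

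How the members responded to β-adrenergic stimulation was asked by comparing the 9 stimulated with the 9 unstimulated libraries. After 24 h of isoproterenol, 28 of 37 members had a negative log2 fold change, with a median of -0.11 against -0.00 over all genes tested, of which 50.3% were negative. In edgeR without the block, 4 members fell at a Benjamini-Hochberg adjusted p below 0.05, where 1.91% of all genes did, and none rose. These were Atf6, Herpud1, Phgdh and Mthfd2. Changes were small: at the further limit of 0.5 on the absolute log2 scale, 0 members were called in edgeR (3.20% of all genes), while 11 (29.7%) had an unadjusted p below 0.05, as 15.0% of all genes did, and DESeq2 called 1 member, Trib3, and 4.21% of all genes. In bulk RNA a lower level in each cell cannot be told apart from fewer cells of a type.

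With the replicate block 18 members (48.6%) fell and 1 rose at an adjusted p below 0.05 in edgeR, against 12.2% of all genes that fell and 14.2% that rose. With the fold limit the block called 1 member, Trib3, where 7.00% of all genes were called. In pairs with the same LNA and number, 12 members (32.4%) were lower in all 9 pairs, which 6.92% of all genes were: Pdia4, Xbp1, Atf6, Herpud1, Edem1, Sel1l, Trib3, Nupr1, Ppp1r15a, Asns, Psat1 and Mthfd2. The members that fell with the block came from every role, but unevenly, with 2 of 15 chaperones and folding enzymes, 3 of 4 sensor genes, 3 of 4 degradation genes, 5 of 8 ATF4 branch regulators and 5 of 6 metabolic targets. Median log2 fold changes without the block, in the same order, were -0.02, -0.22, -0.25, -0.18 and -0.26. Without the 6 libraries of replicate 2 the block called 13 members (35.1%) in either direction at an adjusted p below 0.05, against 13.1% of all genes, and Hspa5, Edem1, Ddit3, Ppp1r15a, Chac1 and Atf5, the 1 member that rose, no longer passed (adjusted p 0.159, 0.0653, 0.116, 0.0692, 0.317 and 0.217). Called without replicate 3 of stimulated LNA2 cells were 22 members (59.5%), against 30.6%.

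**Figure D2:**
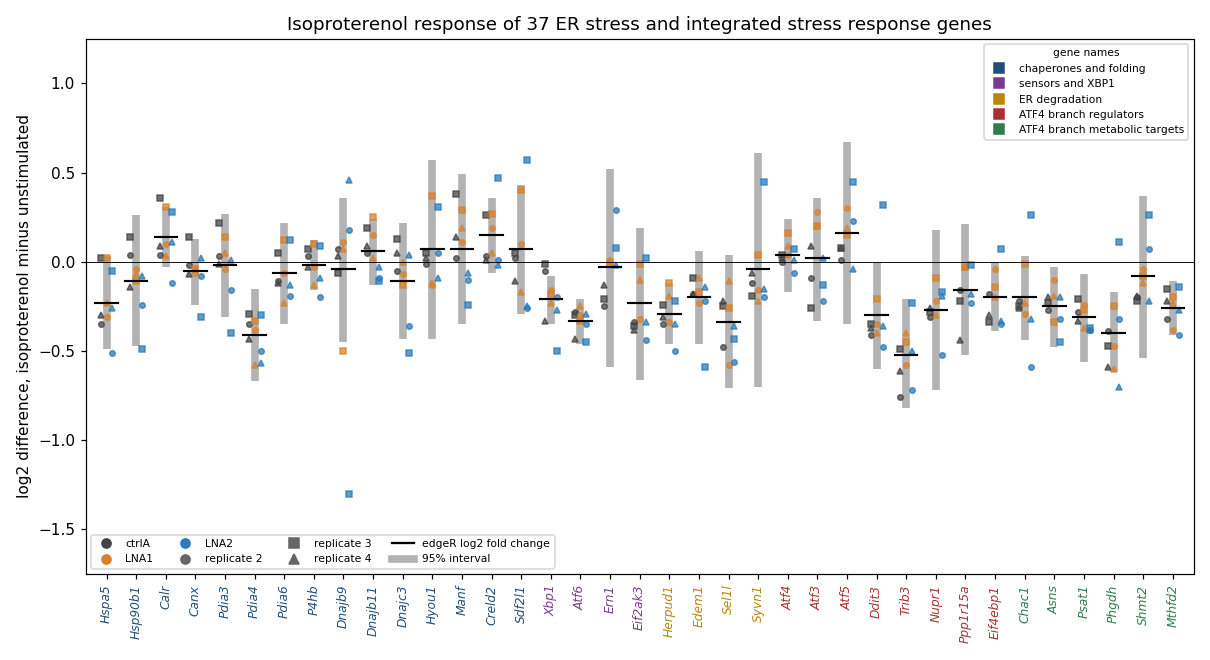
Log2 difference between stimulated and unstimulated libraries for each of the 37 members, in 9 pairs with the same LNA (colour) and replicate number (symbol), with the edgeR log2 fold change without the block (black line) and its 95% interval (grey bar). For Pdia4, Atf6 and Trib3 every pair lies below 0, whereas most chaperones scatter around 0 and Dnajb9 has 1 pair at -1.30.

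Of the sensors, Atf6, the membrane-bound factor that is cleaved under ER stress, had the smallest adjusted p of the 37 members without the block. For Atf6 (ENSMUSG00000026663.6, chr1:170704674-170867771, minus strand) the values in replicates 2, 3 and 4 were 86.7, 89.8 and 95.8 CPM unstimulated and 71.6, 72.8 and 71.2 CPM stimulated with ctrlA, 84.1, 82.3 and 78.2 and then 68.4, 65.5 and 65.9 with LNA1, and 82.3, 78.4 and 73.8 and then 64.5, 57.3 and 60.3 with LNA2. The highest stimulated library lay below the lowest unstimulated one. Its mean fell from 83.5 ± 6.62 to 66.4 ± 5.24 CPM (n = 9 each, SD), which on the log2 scale is -0.33 (SE 0.06, adjusted p 0.00295 in edgeR, 8.02e-06 with the block). The adjusted p was between 0.00398 and 0.00948 when any 1 library was left out, but without the block it was 0.192 with no filter on low counts, 0.259 without the 6 libraries of replicate 3 and 0.222 without those of replicate 4, and the same 3 settings also took Herpud1, Phgdh and Mthfd2 past 0.05. Within replicate numbers 2, 3 and 4 the mean log2 difference was -0.31, -0.36 and -0.32.

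Xbp1 (ENSMUSG00000020484.19, chr11:5520659-5525893, plus strand), whose product activates chaperone and degradation genes, had 132, 126 and 141 CPM unstimulated and 128, 125 and 112 CPM stimulated with ctrlA, 123, 128 and 129 and then 110, 113 and 110 with LNA1, and 121, 119 and 119 and then 105, 84.3 and 98.5 with LNA2. Stimulated libraries were lower in all 9 pairs and did not overlap with the unstimulated ones within LNA1 and within LNA2, but overlapped within ctrlA. The log2 fold change was -0.21 (SE 0.06, adjusted p 0.0804 in edgeR), and Xbp1 passed with the block (adjusted p 0.00199). Eif2ak3, encoding PERK, passed with the block (-0.25, adjusted p 0.00129) but not without it (0.722). Its exons overlap an exon of Gm43292 on the opposite strand, and reads of the pair may not be separable. Ern1, encoding IRE1, gave -0.03 with an interval from -0.59 to 0.52 without the block, and -0.03 with SE 0.06 with the block (adjusted p 0.784). The counts do not separate the spliced from the unspliced Xbp1 messenger.

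Of the chaperones and folding enzymes, 13 of 15 passed neither fit. Their log2 fold changes ranged from -0.41 to 0.15, with 9 of 15 negative. For Hspa5 (ENSMUSG00000026864.13, chr2:34771970-34777547, plus strand), which encodes the main ER chaperone BiP and carries both elements shown above, replicates 2, 3 and 4 had 1339, 935 and 1006 CPM unstimulated and 1049, 947 and 818 CPM stimulated with ctrlA, 1187, 856 and 902 and then 957, 868 and 770 with LNA1, and 1326, 883 and 839 and then 928, 852 and 701 with LNA2. The groups overlapped, and the pairs of replicate 3 were nearly level. The mean was 1030 ± 201 CPM without and 877 ± 106 CPM with isoproterenol (n = 9 each, SD), which on the log2 scale is -0.23 (SE 0.12, adjusted p 0.417 in edgeR). With the block Hspa5 fell (adjusted p 0.00581), but within replicate numbers 2, 3 and 4 the mean difference was -0.39, -0.00 and -0.26, and without replicate 2 the blocked adjusted p was 0.159.

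Pdia4 (ENSMUSG00000025823.9, chr6:47796141-47813430, minus strand), a disulfide isomerase, also fell with the block. It had 265, 213 and 197 CPM unstimulated and 208, 173 and 146 CPM stimulated with ctrlA, 257, 203 and 196 and then 197, 161 and 131 with LNA1, and 241, 185 and 169 and then 170, 150 and 114 with LNA2. Every pair was lower, by 0.29 to 0.58 on the log2 scale, although the ranges of the groups overlapped. On the log2 scale the difference was -0.41 (SE 0.12, adjusted p 0.0769 in edgeR), and Pdia4 fell with the block (-0.42, adjusted p 6.96e-07), also without replicate 2 (adjusted p 0.00104). Calr and Creld2 were higher in 8 of 9 pairs each (log2 fold change 0.14 and 0.15, adjusted p 0.492 and 0.58, with the block 0.0585 and 0.118), and did not pass. The other ERSE genes Hsp90b1, Canx, Pdia6 and Dnajc3 did not pass either, with log2 fold changes from -0.11 to -0.05.

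Of the ER degradation genes, Herpud1, Edem1 and Sel1l fell with the block and Syvn1 did not pass. Herpud1 (ENSMUSG00000031770.16, chr8:94386438-94395377, plus strand) encodes a membrane protein of the degradation complex. Its values were 78.1, 89.6 and 92 CPM unstimulated and 61, 75.7 and 74.1 CPM stimulated with ctrlA, 68.2, 70.6 and 78.8 and then 54, 64.9 and 69.3 with LNA1, and 80.6, 76.7 and 85.9 and then 56.9, 65.6 and 67.3 with LNA2. The groups were apart within ctrlA and within LNA2 and overlapped within LNA1. Herpud1 fell from 80.1 ± 8.02 to 65.4 ± 7.26 CPM (n = 9 each, SD), which on the log2 scale is -0.29 (SE 0.08, adjusted p 0.0472 in edgeR, 6.47e-05 with the block), yet its adjusted p without the block stayed below 0.05 in 1 of 18 fits that left out 1 library (0.048 to 0.102). Sel1l, the adaptor of the ligase complex, and Edem1, which recognises misfolded glycoproteins, were lower in all 9 pairs and fell with the block (-0.36 and -0.21, adjusted p 0.000216 and 0.0111), but not without it (0.42 and 0.524). Syvn1 gave -0.04 with an interval from -0.70 to 0.61 without the block, and -0.06 with SE 0.06 with it (adjusted p 0.5).

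In the ATF4 branch the messenger of the factor itself did not pass, whereas several of its targets fell with the block. Atf4 (ENSMUSG00000042406.8, chr15:80255184-80257541, plus strand) had 658, 519 and 563 CPM unstimulated and 657, 533 and 571 CPM stimulated with ctrlA, 622, 454 and 526 and then 639, 507 and 559 with LNA1, and 677, 517 and 559 and then 647, 545 and 563 with LNA2. Stimulated libraries were higher in 7 of 9 pairs, and the groups overlapped within each LNA. The log2 fold change was 0.04 (SE 0.10, interval -0.17 to 0.24, adjusted p 0.955 in edgeR, 0.389 with the block). ATF4 is controlled mainly by translation, which these libraries do not measure.

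Ddit3 (ENSMUSG00000025408.15, chr10:127290774-127296288, plus strand), encoding the factor CHOP, had 121, 74.6 and 83.9 CPM unstimulated and 90.9, 58.7 and 64.7 CPM stimulated with ctrlA, 91.6, 65.4 and 79.9 and then 72.1, 56.4 and 60.7 with LNA1, and 111, 62.5 and 74.6 and then 79.5, 78 and 58.3 with LNA2. Stimulated libraries were lower in 8 of 9 pairs, except for replicate 3 of LNA2. On the log2 scale the difference was -0.30 (SE 0.14, adjusted p 0.331 in edgeR, 0.00664 with the block, and 0.116 with the block and without replicate 2). Exons of Ddit3 overlap those of Mars and Gm4189 on the opposite strand, so its counts are uncertain where strand was not used.

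Trib3 (ENSMUSG00000032715.9, chr2:152337422-152344032, minus strand), a pseudokinase induced by ATF4 and CHOP, had the lowest log2 fold change of all members. Its values were 123, 140 and 184 CPM unstimulated and 72.6, 99.5 and 120 CPM stimulated with ctrlA, 101, 120 and 150 and then 67.3, 87.8 and 114 with LNA1, and 115, 123 and 153 and then 69.4, 105 and 108 with LNA2. The groups were apart within ctrlA and within LNA2 and overlapped within LNA1. The mean was 134 ± 25.1 CPM without and 93.7 ± 20.1 CPM with isoproterenol (n = 9 each, SD), which gave -0.52 (SE 0.14, adjusted p 0.0589 in edgeR) and, with the block, -0.53 (adjusted p 6.96e-07), so that Trib3 passed both limits with the block, in DESeq2 and when replicate 4 of stimulated ctrlA or of stimulated LNA1 cells was left out, but not with the block and without replicate 2, where it gave -0.46. Of the other regulators, Nupr1, Ppp1r15a and Eif4ebp1 fell with the block (-0.26, -0.15 and -0.20, adjusted p 0.00285, 0.00795 and 0.00926) and Atf5 rose (0.16, adjusted p 0.0282). None of these passed without the block (adjusted p 0.318 to 0.891). There the values with 1 library left out were -0.38 to -0.14 for Nupr1, -0.23 to -0.06 for Ppp1r15a and 0.06 to 0.25 for Atf5. Exons of Ppp1r15a and of Atf5 overlap genes on the opposite strand, and Atf3 gave 0.02.

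All 6 metabolic targets had negative log2 fold changes. Phgdh (ENSMUSG00000053398.11, chr3:98313170-98339990, minus strand) and Psat1 (ENSMUSG00000024640.9, chr19:15904678-15947337, minus strand) encode successive enzymes of serine synthesis. Phgdh had 230, 278 and 283 CPM unstimulated and 175, 201 and 188 CPM stimulated with ctrlA, 201, 213 and 224 and then 145, 178 and 147 with LNA1, and 235, 278 and 289 and then 188, 300 and 178 with LNA2. Replicate 3 of stimulated LNA2 cells was the highest of the 18 libraries, and in the other 8 pairs the stimulated library was lower. The groups were apart within ctrlA and within LNA1 and overlapped within LNA2. Phgdh fell from 248 ± 34 to 189 ± 45.6 CPM (n = 9 each, SD; log2 difference -0.40 with SE 0.11, adjusted p 0.0445 in edgeR, 0.000357 with the block), and its adjusted p without the block was below 0.05 in 4 of 18 fits that left out 1 library (0.00229 to 0.0919).

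Psat1 had 997, 815 and 821 CPM unstimulated and 822, 705 and 652 CPM stimulated with ctrlA, 875, 660 and 646 and then 739, 548 and 500 with LNA1, and 966, 774 and 700 and then 742, 598 and 538 with LNA2. The 9 pairs were lower by 0.21 to 0.38 on the log2 scale, while the groups overlapped within each LNA. The log2 fold change was -0.31 (SE 0.11, adjusted p 0.164 in edgeR, 8.00e-06 with the block).

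Mthfd2 (ENSMUSG00000005667.8, chr6:83305691-83325908, minus strand), the mitochondrial folate enzyme that takes over the one-carbon unit from serine, had 454, 400 and 411 CPM unstimulated and 363, 360 and 354 CPM stimulated with ctrlA, 415, 353 and 378 and then 319, 308 and 322 with LNA1, and 402, 349 and 336 and then 303, 316 and 280 with LNA2. Within each LNA the groups did not overlap. It fell from 389 ± 37.7 to 325 ± 28.5 CPM (n = 9 each, SD; log2 difference -0.26 with SE 0.07, adjusted p 0.0425 in edgeR, 0.00014 with the block), and stayed below 0.05 without the block in 2 of 18 fits that left out 1 library.

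Asns (ENSMUSG00000029752.12, chr6:7675169-7693254, minus strand), asparagine synthetase and the classical ATF4 target, had 380, 309 and 310 CPM unstimulated and 315, 264 and 270 CPM stimulated with ctrlA, 331, 257 and 276 and then 308, 203 and 242 with LNA1, and 376, 298 and 291 and then 301, 219 and 254 with LNA2. All 9 pairs were lower, although the groups overlapped within each LNA. On the log2 scale the difference was -0.25 (SE 0.11, adjusted p 0.251 in edgeR, 0.000172 with the block). Chac1, which degrades glutathione, fell narrowly with the block (-0.20, adjusted p 0.0496), and Shmt2, which makes the mitochondrial one-carbon unit from serine, did not pass (-0.08, adjusted p 0.243 with the block).

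**Figure D3:**
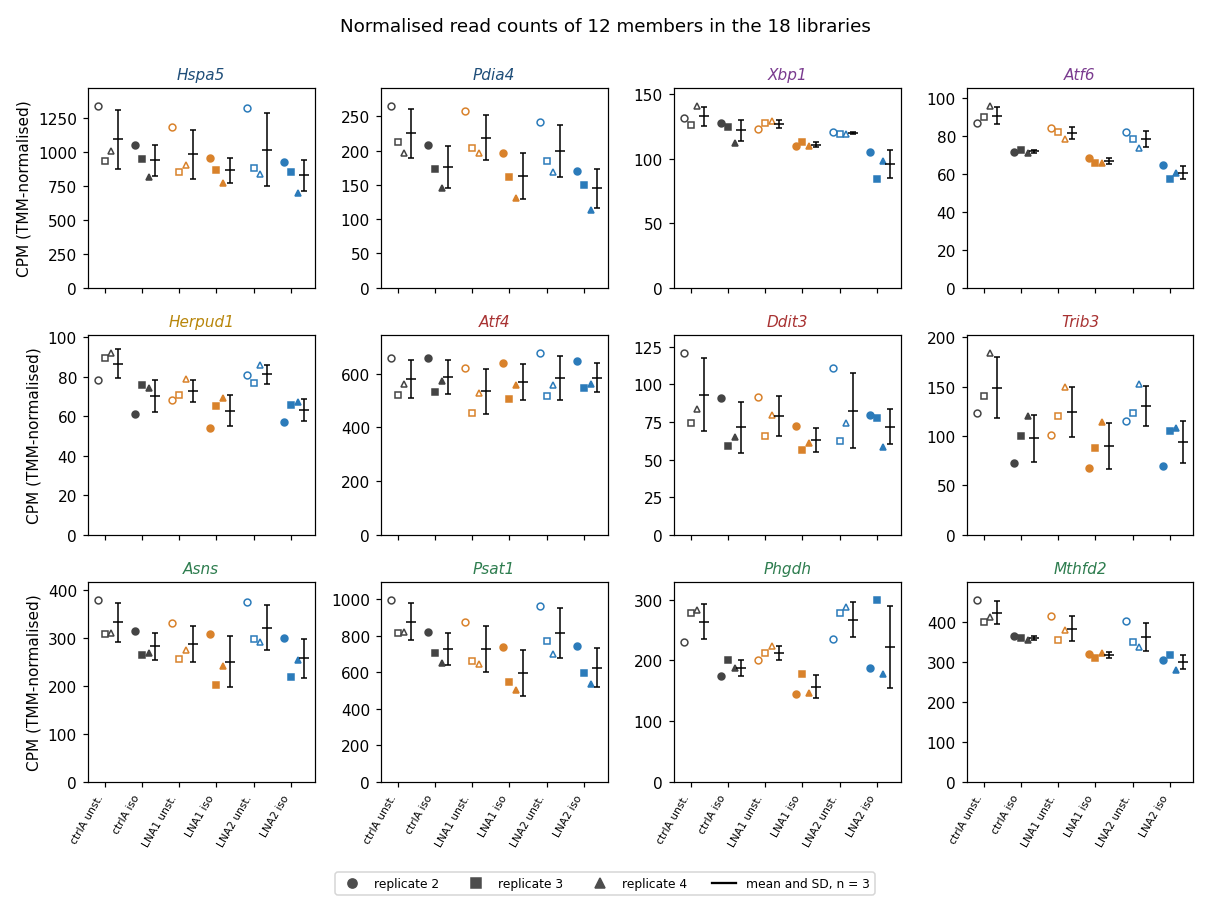
TMM-normalised CPM of 12 members in the 6 groups (unst., unstimulated; iso, isoproterenol), 1 point per library with the symbol giving the replicate number, open for unstimulated and filled for stimulated cells, and the mean ± SD of 3 libraries beside them. Axes start at 0, and titles are coloured by role. Atf6 and Mthfd2 are lower in the stimulated group of each LNA without overlap, Hspa5 and Atf4 are ordered mainly by replicate number, and 1 stimulated LNA2 library of Phgdh lies at 300 CPM.

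Other genes moved with stimulation at the same time. Among the adipocyte markers Ucp1 and Cidea rose (log2 fold change 3.51 and 1.27, adjusted p 1.12e-08 and 0.0011 in edgeR) and Adipoq and Cidec fell (-0.71 and -0.39, adjusted p 0.0073 and 0.0117), so that 2 of 8 rose and 2 of 8 fell. With the block 4 of 8 fell, the others being Fabp4 (-0.47) and Plin1 (-0.25), 3 of 5 preadipocyte and fibroblast markers rose (Ly6a, Col1a1 and Col3a1), and of the proliferation markers Mki67 fell (-0.22, adjusted p 0.0126) and Top2a did not pass. The summed level of the 8 adipocyte markers was 16549 to 27991 CPM in unstimulated and 13430 to 21558 CPM in stimulated libraries. Without the block 1 of these 5 markers rose, Ly6a (1.58, adjusted p 0.0415), and the summed level of the 7 markers found, tested or not, was 224 to 502 CPM and 305 to 524 CPM. Of the macrophage markers Cd68 rose (0.90, adjusted p 0.00618), while Ptprc, Adgre1 and Lyz2 were near 0 and Csf1r did not pass. The part of these shifts in the members' values was not tested.

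The response was then compared between LNAs. In the tests of the interaction between LNA and isoproterenol, 0 members passed in edgeR without the block for LNA1 and 0 for LNA2. Of all 14949 genes 0 passed likewise (0% for each LNA). With the block 0 members passed as well, but no share of all genes at that limit is given to read this against. No member had an unadjusted p below 0.05 without the block (the lowest were 0.457 for Atf3 with LNA1 and 0.25 for Xbp1 with LNA2), as 0.702% and 0.776% of all genes did, and DESeq2 called 0 members, with 0% and 0.0134% of all genes. With the block 2 (5.41%) and 6 members (16.2%) had an unadjusted p below 0.05, against 2.63% and 5.40% of all genes. For Atf6 the mean log2 difference was -0.33 with ctrlA, -0.29 with LNA1 and -0.36 with LNA2, and for Trib3 it was -0.62, -0.48 and -0.48.

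Next, the effect of each LNA was examined over unstimulated and stimulated cells together, with 6 libraries against 6. Both comparisons use the same 6 ctrlA libraries. With LNA1, 34 of 37 members had a negative log2 fold change (median -0.14), against 55% of all genes (median -0.02). In edgeR without the block 0 members were called (0.442% of all genes), 2 (5.41%) had an unadjusted p below 0.05 (Herpud1 and Phgdh), near the 6.01% of all genes, and DESeq2 called 0 members and 0.890% of all genes. With the block 10 members (27%) fell and 0 rose at an adjusted p below 0.05, against 4.03% and 3.77% of all genes, and 0 passed the limit of 0.5 on the log2 scale, which 2.43% of all genes did. In pairs with the same number and stimulation, 26 members (70.3%) were lower with LNA1 in all 6 pairs, which 12.1% of all genes were.

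With LNA2, 27 of 37 members had a negative log2 fold change (median -0.12), against 53.2% of all genes (median -0.02). In edgeR without the block 0 members were called (1.42% of all genes), 5 (13.5%) had an unadjusted p below 0.05, namely P4hb, Xbp1, Atf6, Edem1 and Mthfd2, near the 10.6% of all genes, and DESeq2 called 0 members and 2.26% of all genes. With the block 15 members (40.5%) fell and 1 rose, against 11.2% and 9.43% of all genes, again with 0 past the fold limit, which 5.53% of all genes passed. 16 members (43.2%) were lower with LNA2 in all 6 pairs, against 12.1% of all genes. Without the libraries of replicate 2 the blocked counts were 1 for LNA1 (Psat1, 2.7% against 2.31% of all genes) and 10 for LNA2 (27% against 11.9%, with Canx, Pdia4, P4hb, Dnajb11, Xbp1 and Psat1 no longer passing), and without replicate 3 of stimulated LNA2 cells they were 18 (48.6% against 15.1%) and 20 (54.1% against 22.7%), so that the count for LNA1 rests on which libraries are used.

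By role, with LNA1 the block called 1 of 15 chaperones and folding enzymes (Manf), 0 of 4 sensor genes, 1 of 4 degradation genes (Herpud1), 4 of 8 ATF4 branch regulators (Atf3, Atf5, Nupr1 and Eif4ebp1) and 4 of 6 metabolic targets (Asns, Psat1, Phgdh and Shmt2), all lower. With LNA2 it called 8 of 15 chaperones and folding enzymes (Hsp90b1, Canx, Pdia3, Pdia4, Pdia6, P4hb, Dnajb11 and Manf), 2 of 4 sensor genes (Xbp1 and Atf6), 2 of 4 degradation genes (Edem1 and Sel1l), Atf3, Psat1 and Mthfd2, all lower, and Nupr1, which was higher. Without the block, median log2 fold changes of the chaperones were -0.10 with LNA1 and -0.17 with LNA2, and those of the metabolic targets -0.20 and -0.02. These counts and medians do not test a difference between the LNAs, which the direct comparison further on does.

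Among the chaperones, Hsp90b1 (ENSMUSG00000020048.13, chr10:86690209-86705509, minus strand), which encodes the ER form of HSP90 and carries 2 ERSE matches, had 1264, 821 and 841 CPM unstimulated and 1296, 904 and 762 CPM stimulated with ctrlA, 1161, 783 and 682 CPM and 984, 557 and 643 CPM with LNA2. Each LNA2 library was lower than its ctrlA counterpart, while the ranges of the groups overlapped. Exons of Hsp90b1 overlap a gene on the opposite strand. The log2 fold change was -0.30 (SE 0.21, adjusted p 0.765 in edgeR, 0.000984 with the block, 0.0378 with the block and without replicate 2), and without the block it lay between -0.43 and -0.16 when 1 library was left out, with the extremes without replicate 2 of stimulated LNA2 and of stimulated ctrlA cells. P4hb, the β subunit of prolyl hydroxylase and a disulfide isomerase, differed by LNA more than by number (61.8% of its sum of squares) and averaged 995 ± 24.3 CPM in ctrlA libraries, 906 ± 34.6 in LNA1 libraries and 873 ± 60.9 in LNA2 libraries (n = 6 each, SD). Its log2 fold change was -0.14 with LNA1 (adjusted p 1 in edgeR, 0.0954 with the block) and -0.19 with LNA2 (0.409 and 0.00938, with the block and without replicate 2 0.0952).

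For Atf6 the mean was 81.3 ± 10.8 CPM in ctrlA libraries, 74.1 ± 8.48 in LNA1 libraries and 69.4 ± 10.2 in LNA2 libraries (n = 6 each, SD). The LNA2 difference was -0.23 in log2 units (SE 0.07, adjusted p 0.159 in edgeR, 0.00266 with the block). Psat1 gave -0.28 with LNA1 (adjusted p 0.892 in edgeR, 0.000967 with the block, 0.0167 with the block and without replicate 2) and -0.16 with LNA2 (0.852, 0.0131 and 0.0607). Its LNA2 value without the block lay between -0.22 and -0.1 when 1 library was left out. Atf3, an early stress factor with a C/EBP-ATF match, averaged 29.8 ± 5.65 CPM in ctrlA libraries, 23.6 ± 5.44 in LNA1 libraries and 23.5 ± 5.86 in LNA2 libraries (n = 6 each, SD), at -0.34 for each LNA (adjusted p 0.0019 and 0.000544 with the block, 1 and 0.647 without it). It was lower in all 6 pairs of either LNA, and with the block and without replicate 2 the adjusted p was 0.0546 and 0.0108.

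**Figure D4:**
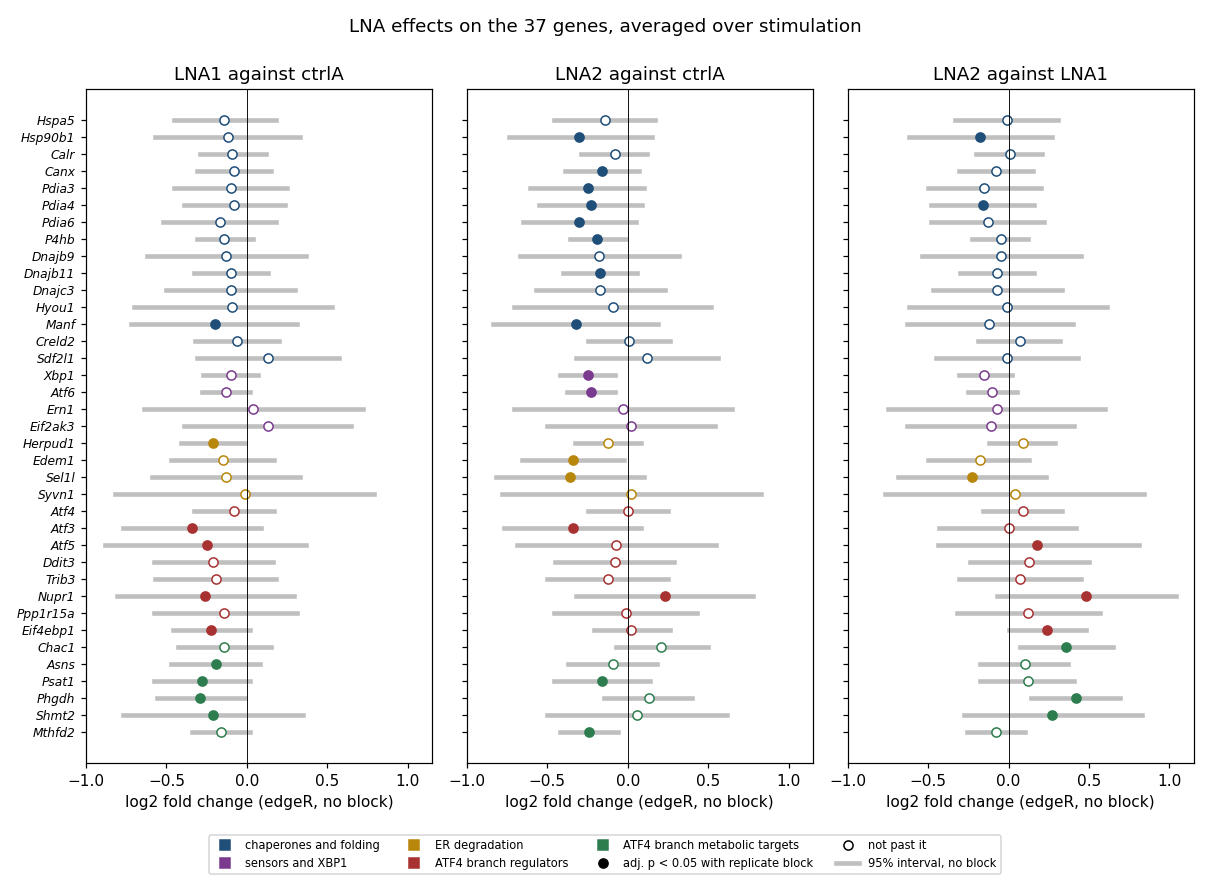
Log2 fold change of each member for LNA1 against ctrlA, LNA2 against ctrlA and LNA2 against LNA1, averaged over stimulation, from edgeR without the block (points, 6 libraries against 6) with 95% intervals (grey), filled where the adjusted p with the replicate block was below 0.05. Most points of the left and middle panels lie below 0 and most intervals include 0, and in the right panel the filled points of the ATF4 branch lie above 0 with Nupr1 at 0.48.

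The LNAs against the same target were also compared directly. In edgeR without the block 0 members differed between LNA2 and LNA1 (0.923% of all genes did), 3 (8.11%) had an unadjusted p below 0.05 (Phgdh, Chac1 and Eif4ebp1), near the 9.20% of all genes, and DESeq2 called 0 members and 1.55% of all genes. With the block 3 members were lower with LNA2 (Hsp90b1, Pdia4 and Sel1l) and 6 higher (Atf5, Nupr1, Eif4ebp1, Chac1, Phgdh and Shmt2) at an adjusted p below 0.05, against 7.20% and 8.23% of all genes. These are 8.11% and 16.2% of the members, so that the share of lower calls was near that of all genes. All 6 higher members belong to the ATF4 branch. In this branch 12 of 14 log2 fold changes were positive and 13 of 15 chaperones were negative, where 50.7% of all genes were negative. The difference between these roles was not tested. In the same fit with the block, 2 of 8 adipocyte markers were higher (Adipoq 0.21, Plin1 0.18) and 1 lower (Pparg -0.15), 2 of 5 preadipocyte and fibroblast markers higher (Ly6a 0.51, Col1a1 0.28) and 1 lower (Col3a1 -0.49), and both tested macrophage markers higher (Csf1r 2.06, Cd68 0.46), with adjusted p between 9.39e-05 (Col3a1) and 0.0339 (Col1a1). Without the block 0 of these passed, with the lowest adjusted p at 0.0967 (Csf1r). Their part in the result was not tested. Without replicate 3 of stimulated LNA2 cells the block called 7 members (18.9%), against 15.4% of all genes. Without replicate 2 it called 4 (10.8%), against 7.12%, with Sel1l lower and Nupr1, Eif4ebp1 and Chac1 higher.

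Nupr1 (ENSMUSG00000030717.9, chr7:126623249-126630861, minus strand), a small chromatin protein induced by ATF4, passed the fold limit as well with the block, as did 4.11% of all genes. It had 108, 51.8 and 65.1 CPM unstimulated and 87, 42.7 and 54.4 CPM stimulated with ctrlA, 88.4, 41.9 and 53 and then 75.8, 39.4 and 43.1 with LNA1, and 119, 67.5 and 79.6 and then 83.4, 59.9 and 69.5 with LNA2. LNA2 libraries exceeded LNA1 libraries in 6 of 6 pairs, although the groups overlapped through replicate 2. The log2 difference was 0.48 (SE 0.26, adjusted p 0.665 in edgeR), 0.52 with the block (adjusted p 0.000167), and 0.64 without the libraries of replicate 2 (adjusted p 0.0122 without the block, 0.000531 with it). Against ctrlA, Nupr1 was lower with LNA1 (-0.26) and higher with LNA2 (0.27) in the fit with the block (adjusted p 0.035 and 0.0117, without replicate 2 0.0917 and 0.00335). Leaving out 1 library moved these differences, without the block, between -0.44 and -0.08 for LNA1 and between 0.11 and 0.42 for LNA2.

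Phgdh averaged 226 ± 46 CPM in ctrlA libraries, 185 ± 33.5 in LNA1 libraries and 245 ± 52.9 in LNA2 libraries (n = 6 each, SD), and LNA2 exceeded LNA1 by 0.42 on the log2 scale (SE 0.13, interval 0.14 to 0.69, adjusted p 0.211 in edgeR, 0.00452 with the block). With the block and without replicate 2 its adjusted p was 0.0557. Atf4 and Hspa5 did not pass between the LNAs in either fit. Atf4 was higher with LNA2 in 6 of 6 pairs, by 0.09 on the log2 scale (interval -0.16 to 0.33 without the block, SE 0.04 and adjusted p 0.145 with it). For Hspa5 the interval without the block was -0.33 to 0.31, and with the block the difference was -0.02 (SE 0.07, adjusted p 0.899).

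Markers moved with the LNAs as well. Pdgfra, a preadipocyte marker, rose with LNA1 and with LNA2 (log2 fold change 0.89 and 0.71, adjusted p 0.00743 and 0.0121 in edgeR), from 7.41 ± 0.488 CPM with ctrlA to 13.7 ± 1.97 and 12.1 ± 2.17 CPM (SD, n = 6 each), and was the 1 marker of the 5 tested of that list to pass without the block. With the block LNA2 also raised Ly6a (0.66, adjusted p 0.00549) and the macrophage marker Csf1r (1.71, adjusted p 0.00677) and lowered Col3a1 (-0.62, adjusted p 7.51e-06) and both proliferation markers, Mki67 (-0.27, adjusted p 0.0194) and Top2a (-0.32, adjusted p 0.00128). 0 of the 8 adipocyte markers passed without the block, with 8 of 8 negative for LNA1 and 7 of 8 for LNA2 (median -0.15 and -0.20), and with the block 1 and 3 fell. Cd68 averaged 14.2 ± 6.68 CPM in ctrlA libraries, 18.7 ± 7.35 in LNA1 libraries and 25.6 ± 10.3 in LNA2 libraries (n = 6 each, SD) and rose with the block (adjusted p 0.0408 and 7.74e-05). With LNA1 the other tested macrophage marker, Csf1r, was negative and did not pass (-0.35 with the block, adjusted p 0.74). The part of these shifts in the members' values was not tested.

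Tested together for any difference (adjusted p below 0.001), the 6 groups gave 0 called members in edgeR without the block (0.455% of all genes), with 5 (13.5%) at an unadjusted p below 0.05, near the 11.3% of all genes. DESeq2 called Xbp1, Atf6 and Mthfd2, 3 members, and 3.72% of all genes. The edgeR fit with the block called 11 members (29.7%), against 8.93% of all genes: Pdia4, Atf6, Herpud1, Sel1l, Atf3, Trib3, Nupr1, Asns, Psat1, Phgdh and Mthfd2.

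Other genes of these pathways, taken from lists of 37 tested ER genes and 39 tested genes of the integrated stress response, were examined in the same way. With isoproterenol 1 ER gene and 2 genes of the integrated stress response fell without the block: Ero1a, the oxidase that drives disulfide formation (1511 ± 181 to 953 ± 222 CPM, log2 fold change -0.68, adjusted p 0.00398 in edgeR), the cystine transporter Slc7a11 (26.6 ± 5.07 to 15.9 ± 2.95 CPM, -0.74, adjusted p 0.000802) and the mitochondrial folate enzyme Aldh1l2 (166 ± 30.2 to 106 ± 15.4 CPM, -0.65, adjusted p 0.00472; SD, n = 9 each). With the block 4 ER genes fell and 2 rose, and 10 genes of the integrated stress response fell and 7 rose, where 12.2% of all genes fell and 14.2% rose, so that the ER list did not exceed the share of all genes in either direction. Those that fell include the serine and cysteine enzymes Psph (-0.36) and Cth (-0.37), and those that rose include the factor Cebpb (0.62, adjusted p 1.88e-05) and the hormone Fgf21 (0.45, adjusted p 5.25e-05).

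With the LNAs, Ero1b rose without the block (log2 fold change 0.81 and 0.86 for LNA1 and LNA2, adjusted p 0.0493 and 0.0158 in edgeR) at a low level of 4.32 to 7.86 CPM. With the block 4 of 37 ER genes and 13 of 39 genes of the integrated stress response fell with LNA1, and 12 and 7 with LNA2. Of the same lists 2 and 0 rose with LNA1, and 3 and 2 with LNA2. The shares of all genes were 4.03% lower and 3.77% higher with LNA1, and 11.2% lower and 9.43% higher with LNA2. In neither list did the genes that rose with LNA2 exceed the share of all genes. Between the LNAs, Gdf15, a secreted stress hormone, was higher with LNA2 than with LNA1 (92.7 ± 20.4 against 55.3 ± 7.28 CPM, log2 fold change 0.74, adjusted p 0.0399 in edgeR, SD, n = 6 each). With the block 1 of 39 genes of the integrated stress response was lower and 9 were higher, against 7.20% and 8.23% of all genes. The lower calls thus did not exceed the share of all genes.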

How the data were processed

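RNA was sequenced from 18 libraries, 3 in each of 6 groups. Per the labels and the study's methods, reads were demultiplexed with bcl2fastq, trimmed with cutadapt and quantified with Salmon against the GENCODE M22 mouse transcripts, alone or combined with RNAcentral (which of these applies to this table is not stated). Tool versions and the strand setting are not given in the sources used here. The authors deposited 1 table of expected counts per gene, which are all whole numbers as deposited. 35899 of 54347 genes had a count, and edgeR's filterByExpr (minimum count 10, minimum total 15) kept 14949. The counts were tested with edgeR 4.0.16 (R 4.3.3), with TMM scaling, 1 term per group and quasi-likelihood F tests with Benjamini-Hochberg adjustment over all genes tested. Calls needed an adjusted p below 0.05 and, for averaged contrasts, an absolute log2 fold change above 0.5, or an adjusted p below 0.001 in the joint test. The procedure was tested on simulated data.

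Libraries with the same replicate number deviated from their group means together, with correlations of 0.24 to 0.72 in 45 pairs against -0.60 to 0.40 in 90 pairs with other numbers. The numbers in the labels were therefore taken to pair the libraries (limit 0.1), and a fit with the replicate block is given beside the main test. Calls with the block by adjusted p alone were added after the data were seen. DESeq2 1.42.0, other scaling and filters and left-out libraries were the alternatives.

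The members and all gene lists were chosen with earlier results of these data known. Values in every library are given for members called without the block (0 members) and for Hspa5, Xbp1, Atf4, Ddit3, Herpud1 and Asns, filled up to 12 members by the smallest p of the joint test. Nupr1, Hsp90b1, P4hb, Atf3, the examples from the other pathway genes and the marker genes were named after their values were seen. Pearson correlations within roles are not given, because libraries were separated by replicate number. Gene coordinates are from GENCODE M21 (GRCm38). For 11 of 37 members an exon overlaps a gene on the opposite strand. These are Hsp90b1, Pdia3, Pdia6, Dnajb9, Manf, Eif2ak3, Syvn1, Atf5, Ddit3, Ppp1r15a and Shmt2. Their counts are uncertain where strand was not used. No deposited column was left unused (0 columns).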

Additional observations from a re-analysis of the deposited data

How the results depend on the processing

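Followed here were only values with an adjusted p below 0.05 with the replicate block, which is itself among the settings. None of these values changed direction under any setting. In 1313 comparisons of a value with a setting it stayed on its side of the threshold, in 193 it passed only under the alternative and in 60 it no longer passed. Only 4 of the values, all for isoproterenol, passed in the main test, so staying mostly meant not passing. Other members were not followed, and Ern1 with LNA2 was -0.03 without the block and 0.01 with it. With the limits of the main test, the replicate block raised the count of members called from 0 to 1 for isoproterenol (Trib3), from 0 to 1 between LNA2 and LNA1 (Nupr1) and from 0 to 11 in the joint test, which has no fold limit. DESeq2 gave 1 for isoproterenol (Trib3) and 3 in the joint test, leaving out replicate 2 gave 1 between LNA2 and LNA1 (Nupr1), and leaving out 1 library in turn gave 0 to 1 for isoproterenol, where 1 was Trib3 without replicate 4 of stimulated ctrlA or of stimulated LNA1 cells. By adjusted p alone the count for isoproterenol was 4. The causes were not tested.

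By adjusted p alone with the replicate block, the counts for LNA1, LNA2, LNA2 against LNA1 and isoproterenol were 10, 16, 9 and 19. They were 1, 10, 4 and 13 without replicate 2, which also leaves fewer libraries, and 18, 20, 7 and 22 without replicate 3 of stimulated LNA2 cells. With DESeq2 size factors they were 11, 17, 8 and 19, for which no share of all genes is given. These settings were chosen after seeing the data. No other scaling moved the median log2 fold change of all genes by more than 0.0121.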
